A study of Arabidopsis thaliana with 12 samples.

Results

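Salicylic acid (SA) is the hormone that carries much of the basal and systemic immunity of *Arabidopsis* against biotrophic bacteria. Its main route in infected leaves begins in the plastid, where an isochorismate synthase acts, and ends in the cytosol, where isochorismate is coupled to glutamate and breaks down to SA. The lipase-like protein EDS1 and its partners act upstream of this route, a pair of calmodulin-binding-type transcription factors switch it on, and NPR proteins perceive the SA that is made. A set of 10 genes, taken by name for these functions, was followed here out of 27371 genes in the deposited tables. The set was chosen with earlier results of these data known. They are *ICS1*, *PBS3* and *EDS5* (synthesis), *EDS1*, *PAD4* and *SAG101* (the EDS1 family), *CBP60g* and *SARD1* (transcription factors) and *NPR1* and *NPR3* (receptors). All 10 identifiers were found in the files.

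The study asked how the loss of LINC1, a lamin-like protein at the nuclear periphery, changes the immune response to *Pst hrcC-*, *Pseudomonas syringae* pv. *tomato* bacteria that cannot inject effectors because their type III secretion is broken. mRNA was sequenced from whole 14-day-old seedlings of *linc1-1*, in which a T-DNA sits in *LINC1*, and of wild type (WT, Col-0). The 4 groups were *linc1-1* with *Pst hrcC-*, *linc1-1* mock, WT with *Pst hrcC-* and WT mock, with 3 libraries each. The treated seedlings were sprayed at an OD600 of 0.002 and taken after 24 hours, and all plants grew on sugar-free plates at 23 °C in long days. Only 1 insertion line was sequenced, so an effect of the gene and of anything else in that line cannot be told apart. The mock seedlings carry no further treatment in the labels.

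Expression is given as FPKM, a fragment count divided by transcript length and by the mapped fragments of the library, so levels of different genes can be compared per length. The number of reads per library is not in the tables, and the depth behind a value is therefore unknown. *LINC1* (AT1G67230) was at 2.09 to 3.76 FPKM in the 6 *linc1-1* libraries and at 17.2 to 28.3 FPKM in the 6 WT libraries. This matched the line named in every label and does not bear on the treatment labels. Between 20568 and 22548 genes per library were above 0. Of a list of 20 leaf genes, 19 were above 0 in all 12 libraries, and 9 of 12 root genes were. The library WT *Pst hrcC-* replicate 1 stood apart: 11 of 12 circadian clock genes there were beyond their values in all other libraries, against at most 3 of 12 in any other library, and it was the highest library for 3 of the 10 genes (*PBS3*, *EDS1* and *PAD4*). WT *Pst hrcC-* replicate 3 was highest for 4 of them (*EDS5*, *SAG101*, *SARD1* and *NPR3*), WT mock replicate 1 for 2 (*ICS1* and *NPR1*) and WT mock replicate 2 for *CBP60g*. WT *Pst hrcC-* replicate 3 was unusual as well. Its FPKM values summed to 904687, against 2.36e+06 to 7.04e+06 in the other libraries. It also had the fewest genes above 0 (20568) and the lowest summed level of the leaf genes (34037 FPKM).

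The 10 genes covered a wide range of levels. Averaged over the 12 libraries, *NPR1* had 8.38 FPKM, *NPR3* 7.14, *EDS1* 5.77, *SAG101* 5.33, *PAD4* 2.68 and *CBP60g* 1.80 FPKM. The genes of the synthesis route were low, with means of 0.896 FPKM for *EDS5*, 0.474 FPKM for *ICS1* and 0.246 FPKM for *PBS3*, and *SARD1* was lowest at 0.169 FPKM. *NPR1* exceeded 78.3% of all 27371 genes in mean level and *SARD1* 25.2%. In this order *NPR1* was above *NPR3* in 10 of 12 libraries and *ICS1* above *PBS3* in 11, while *NPR3* was above *EDS1* in 7, and *EDS1* above *SAG101*, *PAD4* above *CBP60g* and *PBS3* above *SARD1* in 8 each, and no neighbouring pair of the order was separated in all 12 libraries. A gene had to average at least 1 FPKM to be tested, which left 6 of the 10 (*EDS1*, *PAD4*, *SAG101*, *CBP60g*, *NPR1* and *NPR3*). For *ICS1*, *PBS3*, *EDS5* and *SARD1* the fitted values below come from a fit with no minimum.

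**Figure D1:**
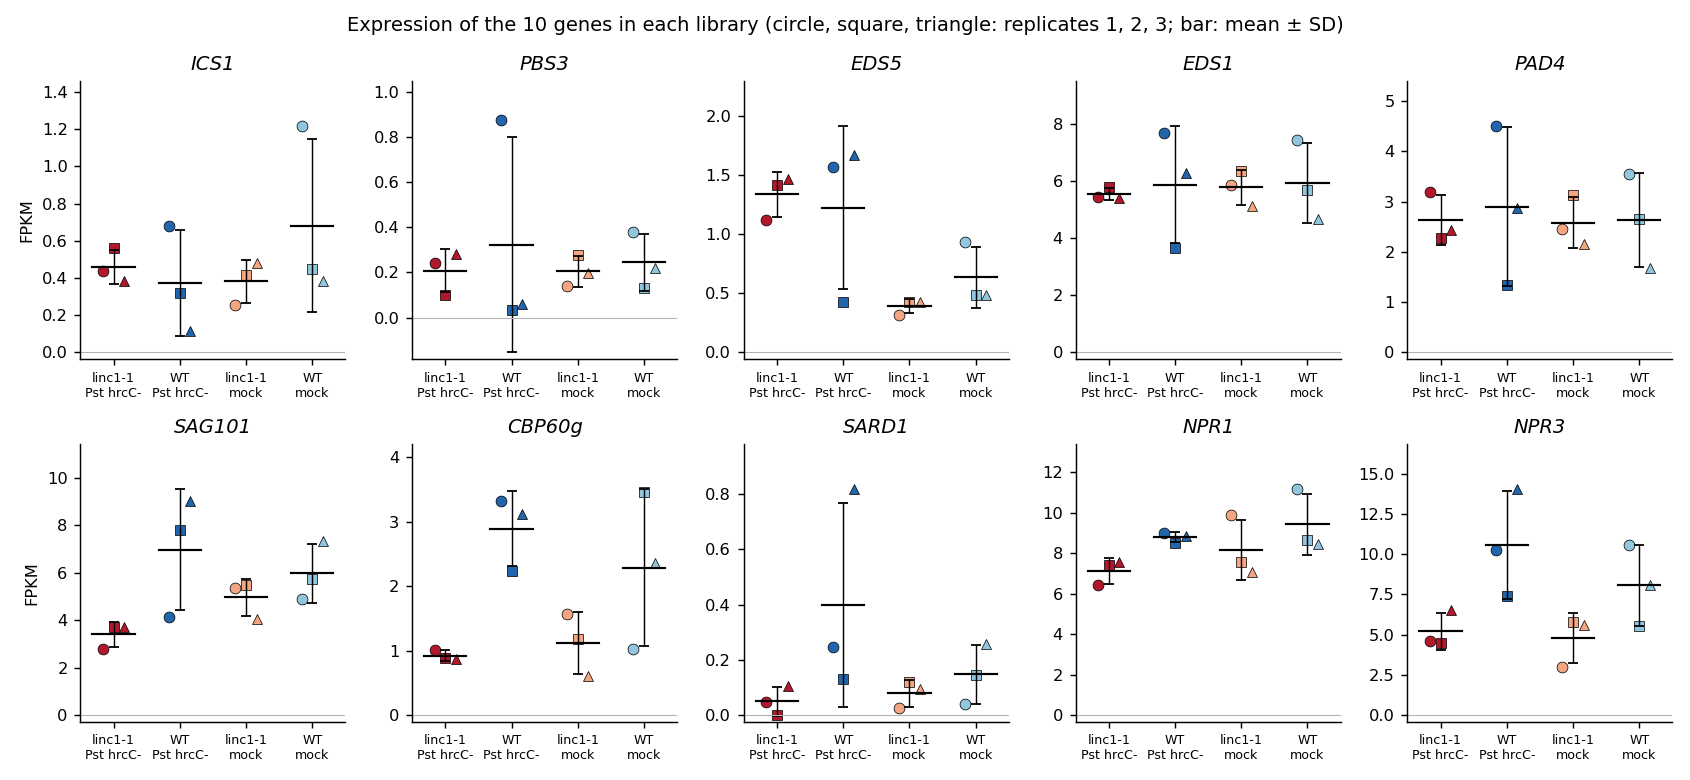
FPKM of each gene in the 12 libraries, by group (x axis), with the mean and SD of 3 libraries as a bar. *CBP60g* in *linc1-1* after *Pst hrcC-* sits between 0.866 and 1.01 FPKM, below the 2.23 to 3.32 FPKM of WT after *Pst hrcC-*, while the groups of *EDS1* and *PAD4* overlap.

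The windows of 300 bases before the annotated start are shown for 5 genes, namely the 4 whose values did not overlap between the lines after *Pst hrcC-* and whose window held no exon of a neighbour (*CBP60g*, *SARD1*, *NPR1* and *NPR3*), and *EDS5*, the 1 gene that was higher in every *Pst hrcC-* library than in every mock library of *linc1-1*. They come from the RefSeq TAIR10.1 assembly and read 5′ to 3′ on the strand of the gene. Capitals mark TTGAC on either strand (GTCAA on the strand shown), the core of the W-box that WRKY factors bind.
CBP60g (AT5G26920, chr5:9475379-9475678, plus strand): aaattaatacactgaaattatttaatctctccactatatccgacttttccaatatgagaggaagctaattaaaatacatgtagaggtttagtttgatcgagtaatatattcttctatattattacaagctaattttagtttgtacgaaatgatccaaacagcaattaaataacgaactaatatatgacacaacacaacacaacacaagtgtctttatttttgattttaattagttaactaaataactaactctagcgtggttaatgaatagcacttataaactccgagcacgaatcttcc
SARD1 (AT1G73805, chr1:27749249-27749548, minus strand): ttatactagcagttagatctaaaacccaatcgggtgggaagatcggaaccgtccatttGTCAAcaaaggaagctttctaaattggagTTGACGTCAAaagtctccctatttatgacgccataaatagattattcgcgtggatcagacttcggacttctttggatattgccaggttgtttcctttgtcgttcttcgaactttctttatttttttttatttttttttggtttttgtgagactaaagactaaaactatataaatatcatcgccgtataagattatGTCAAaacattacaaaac
NPR1 (AT1G64280, chr1:23855659-23855958, minus strand): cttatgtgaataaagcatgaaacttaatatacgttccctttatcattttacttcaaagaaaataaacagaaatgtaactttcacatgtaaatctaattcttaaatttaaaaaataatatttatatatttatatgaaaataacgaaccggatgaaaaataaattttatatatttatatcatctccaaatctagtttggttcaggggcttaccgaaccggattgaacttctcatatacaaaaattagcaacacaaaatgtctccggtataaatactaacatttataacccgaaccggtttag
NPR3 (AT5G45110, chr5:18228468-18228767, plus strand): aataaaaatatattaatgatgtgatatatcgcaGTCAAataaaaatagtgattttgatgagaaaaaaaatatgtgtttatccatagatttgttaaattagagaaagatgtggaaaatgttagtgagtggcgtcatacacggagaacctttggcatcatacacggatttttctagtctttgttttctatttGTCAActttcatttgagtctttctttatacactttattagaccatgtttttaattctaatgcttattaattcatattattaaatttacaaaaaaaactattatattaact
EDS5 (AT4G39030, chr4:18185137-18185436, plus strand): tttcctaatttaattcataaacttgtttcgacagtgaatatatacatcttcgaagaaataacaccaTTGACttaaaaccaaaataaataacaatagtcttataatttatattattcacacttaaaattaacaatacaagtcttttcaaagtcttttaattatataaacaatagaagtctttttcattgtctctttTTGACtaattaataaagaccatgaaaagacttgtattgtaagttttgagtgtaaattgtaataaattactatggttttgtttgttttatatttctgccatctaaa

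TTGAC on either strand was present in 5 of the 10 windows (*EDS5*, *EDS1*, *SAG101*, *SARD1* and *NPR3*), against 50.4% of the windows of 27443 protein-coding genes. *SARD1* held 4 copies, 2 of them within TTGACGTCAA, where they overlap a pair of TGACG matches. The *CBP60g* and *NPR1* windows held none. TGACG, the core to which TGA factors bind, was found before *EDS1*, *SARD1* and *NPR3* (21.3% of all windows), and GAAATTT, a sequence that CBP60g and SARD1 bind, was found only before *ICS1* among the 10, with 2 copies (14.9% of all windows). CGCG, the core bound by CAMTA factors, was found before *EDS1* and *SARD1* (11.8%). A match is a match of letters and not a shown binding site. *SARD1* overlaps a gene on the other strand (AT1G73790) by 640 bases, *EDS5* likewise overlaps AT4G39040 by 213 bases, and *NPR1* overlaps AT1G08667 by 214 and AT1G64270 by 38 bases. Whether strand was used in computing FPKM is not given in the sources used here, and without it reads of such pairs cannot be told apart.

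The comparison of *linc1-1* with WT after *Pst hrcC-* asks whether LINC1 sets the level of these genes once the bacteria are perceived. *CBP60g*, a transcription factor that switches on *ICS1*, was lower in *linc1-1*, at 1.01, 0.877 and 0.866 FPKM in replicates 1, 2 and 3, against 3.32, 2.23 and 3.13 FPKM in WT. The groups did not overlap. Its log2 fold change was -1.01 (SE 0.27), a 2.01-fold difference on the FPKM + 1 scale that did not pass the threshold (adjusted p = 0.138, limma with Benjamini-Hochberg adjustment over 16677 genes). *SARD1*, its paralogue with an overlapping role, had 0.0457, 0 and 0.104 FPKM in *linc1-1*, against 0.247, 0.13 and 0.82 FPKM in WT, also without overlap (-0.38 on the log2 scale, SE 0.15, limma adjusted p = 0.297). Without WT *Pst hrcC-* replicate 3, the highest library, the *SARD1* difference was -0.18. The value of 0 is as listed and can be a failed estimate.

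*SAG101*, a partner of EDS1 in signalling by TIR-type immune receptors, had 2.78, 3.71 and 3.71 FPKM in *linc1-1* after *Pst hrcC-*, against 4.11, 7.79 and 9.02 FPKM in WT. Every *linc1-1* library was below every WT library, and the nearest WT library was replicate 1. The log2 fold change was -0.81 (SE 0.25, limma adjusted p = 0.17). *EDS1* itself had 5.43, 5.79 and 5.40 FPKM in *linc1-1*, against 7.67, 3.64 and 6.27 FPKM in WT, and *PAD4*, the other partner of EDS1, had 3.19, 2.27 and 2.44 FPKM, against 4.50, 1.33 and 2.87 FPKM. The WT values of both genes spanned those of *linc1-1*. Their log2 fold changes were -0.02 (SE 0.23) and -0.03 (SE 0.29), with adjusted p of 0.969 and 0.976 from limma. Without WT *Pst hrcC-* replicate 1 they were 0.17 and 0.27 (adjusted p = 0.645 and 0.551). With these errors a difference of either gene was not detectable, which does not show that the lines were alike.

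*NPR3*, an SA receptor that represses defence genes, had 4.57, 4.49 and 6.53 FPKM in *linc1-1* after *Pst hrcC-*, against 10.2, 7.40 and 14.0 FPKM in WT. All *linc1-1* libraries lay below all WT libraries (-0.88 on the log2 scale, SE 0.29, limma adjusted p = 0.199). *NPR1*, the SA receptor and co-activator, had 6.41, 7.40 and 7.56 FPKM in *linc1-1*, against 9.02, 8.53 and 8.85 FPKM in WT, a smaller gap but again with no overlap (-0.27 on the log2 scale, SE 0.16, limma adjusted p = 0.422). In the synthesis route the groups overlapped. *ICS1* had 0.439, 0.561 and 0.382 FPKM in *linc1-1*, against 0.679, 0.321 and 0.114 FPKM in WT. *PBS3* had 0.243, 0.099 and 0.282 FPKM in *linc1-1*, against 0.875, 0.0347 and 0.0623 FPKM in WT, and *EDS5* had 1.12, 1.42 and 1.47 FPKM, against 1.57, 0.429 and 1.67 FPKM. None of the 3 separated the lines. Their log2 differences were 0.11, -0.08 and 0.12, and without WT *Pst hrcC-* replicate 1 they were 0.27, 0.20 and 0.25.

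Counted together after *Pst hrcC-*, 5 of the 10 genes (*SAG101*, *CBP60g*, *SARD1*, *NPR1* and *NPR3*) were lower in all *linc1-1* libraries than in all WT libraries, and of the 6 tested genes 4 were, against 6.19% of all tested genes in that direction. With 3 libraries against 3, the exact permutation test of a single gene cannot go below p = 0.1. By limma, 0 of the 6 tested genes passed an adjusted p of 0.05 with a fold above 1.5, where 0.432% of all tested genes did in either direction. At an unadjusted p under 0.05 and the same fold, 3 of 6 were lower (*SAG101*, *CBP60g* and *NPR3*), against 3.92% of all tested genes. The genes were chosen with earlier results of these data known, so these counts beside the shares are no independent test. The median log2 fold change over the 6 was -0.54, and it was 0.14 over all 16677 genes. The values of the lines stand in separate tables, and whether these were scaled together is not given in the sources used here. After scaling each library by its median ratio to all libraries, the median over all genes was 0.01, that over the 6 genes was -0.68, and the log2 fold changes became -1.102 for *CBP60g*, -1.01 for *NPR3*, -0.94 for *SAG101* and -0.42 for *NPR1*, with adjusted p from 0.112 to 0.234 in limma.

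Whether *SAG101* and *CBP60g* passed after *Pst hrcC-* depended on the libraries kept and their weights. Each passed in 3 of 20 alternatives. Without both WT replicate 1 libraries (*Pst hrcC-* and mock), *SAG101* fell by 1.102 on the log2 scale (SE 0.17, limma adjusted p = 0.00467). *CBP60g* fell by 0.93 in that fit (SE 0.22, limma adjusted p = 0.0203). Thus 2 of the 6 tested genes passed, against 6.31% of all tested genes that were called lower. Without WT *Pst hrcC-* replicate 1 alone, *SAG101* passed (adjusted p = 0.0283), and without WT mock replicate 1 alone, *CBP60g* passed (adjusted p = 0.0428, from a smaller pooled spread at the same difference of -1.01). With all libraries kept but weighted by their fit, *SAG101* (adjusted p = 0.0124) and *CBP60g* (adjusted p = 0.035) passed as well. The share of all tested genes that passed is not given here for the weighted fit or for single libraries left out. *NPR3* passed in none of these cases (adjusted p = 0.0794 without both). Over the 20 alternatives the limma adjusted p went up to 0.397 for *SAG101*, 0.379 for *CBP60g* and 0.512 for *NPR3*. Without WT *Pst hrcC-* replicate 3 the log2 fold change shrank to -0.62 for *SAG101* and -0.66 for *NPR3*. Leaf genes are given beside these, since they went with the same comparison. Of the 20, 17 had positive values, 0 of them called (median log2 fold change 0.49), where 11014 of all 16677 tested genes had positive values. Without both WT replicate 1 libraries 19 of 20 had positive values, where 10222 of all tested genes did. In that fit 11 leaf genes were called higher (median 1.08), where 11.4% of all tested genes were called higher. The summed level of the leaf genes after *Pst hrcC-* was 50670 to 78133 FPKM in *linc1-1* and 34037 to 79526 FPKM in WT. Of the root genes, 6 of 12 were tested, 5 of them with positive values (median 0.35). Their sums after *Pst hrcC-* were 35.5 to 70.3 FPKM in *linc1-1* and 15.3 to 75.1 FPKM in WT. The part of leaf or root content in the differences of the 10 genes was not tested, and fewer cells of a type and less RNA per cell cannot be told apart in whole seedlings.

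**Figure D2:**
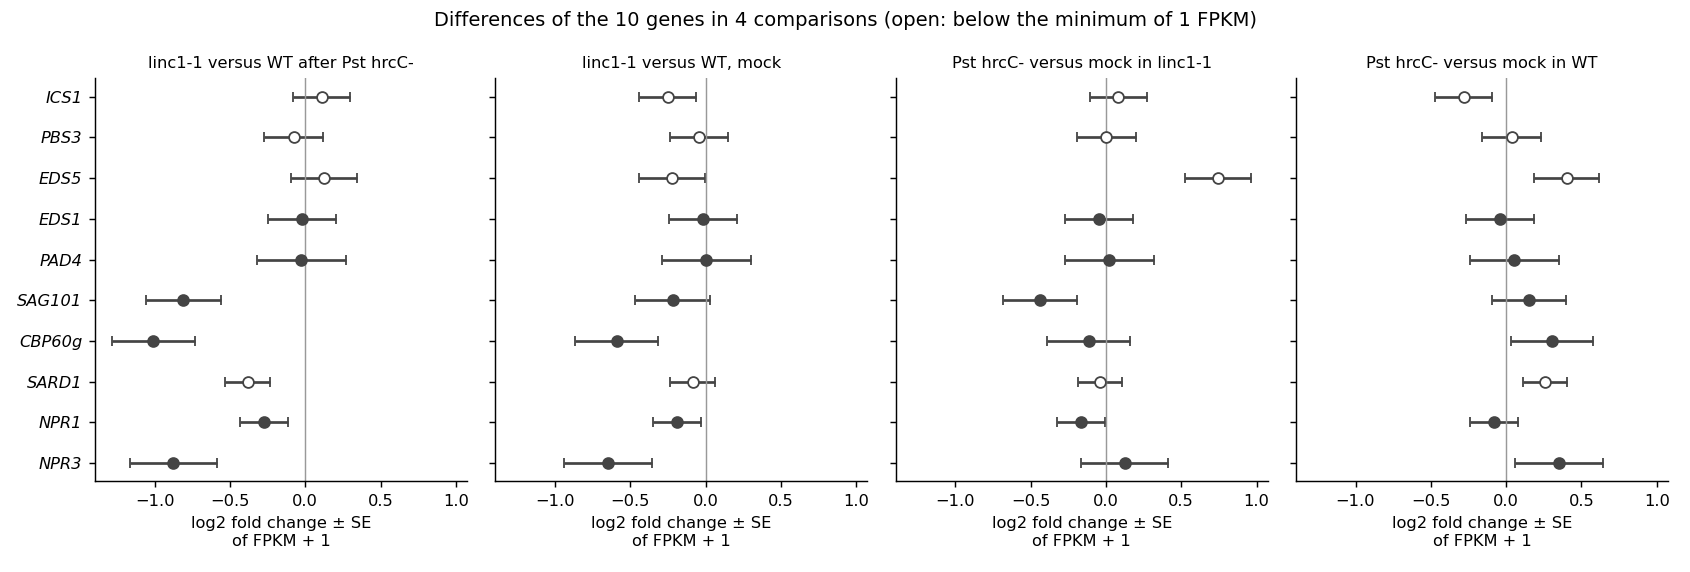
log2 fold change (x axis, of FPKM + 1, with its SE) of the 10 genes in 4 comparisons, open circles for genes below the minimum of 1 FPKM. The largest differences after *Pst hrcC-* between *linc1-1* and WT are -1.01 for *CBP60g*, -0.88 for *NPR3* and -0.81 for *SAG101*, and the largest response is 0.74 for *EDS5* in *linc1-1*.

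The mock comparison asks whether the lines already differed without bacteria. *CBP60g* had 1.56, 1.18 and 0.604 FPKM in mock *linc1-1*, against 1.03, 3.47 and 2.36 FPKM in mock WT. The groups overlapped through WT replicate 1 (-0.59 on the log2 scale, SE 0.27, limma adjusted p = 0.637). *NPR3* had 3.01, 5.76 and 5.57 FPKM in *linc1-1*, against 10.6, 5.52 and 8.06 FPKM in WT, and overlapped through WT replicate 2 (-0.65 on the log2 scale, SE 0.29, limma adjusted p = 0.625). *SAG101* had 5.34, 5.50 and 4.07 FPKM in *linc1-1*, against 4.87, 5.74 and 7.32 FPKM in WT, *NPR1* had 9.87, 7.56 and 7.07 FPKM, against 11.2, 8.66 and 8.47 FPKM, and *SARD1* had 0.0244, 0.119 and 0.0938 FPKM, against 0.041, 0.146 and 0.256 FPKM. Their groups overlapped as well.

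*EDS5* alone of the 10 was lower in every mock *linc1-1* library, at 0.319, 0.427 and 0.428 FPKM, than in every mock WT library, at 0.934, 0.486 and 0.482 FPKM. The gap to the nearest WT library was narrow, and the log2 fold change was -0.22 (SE 0.22, limma adjusted p = 0.898). Among all tested genes, 8.84% were lower without overlap in this comparison. *ICS1* was highest of all libraries in mock WT replicate 1, at 1.22 FPKM, with 0.447 and 0.383 FPKM in the other mock WT libraries and 0.253, 0.415 and 0.479 FPKM in mock *linc1-1*. *PBS3*, *EDS1* and *PAD4* overlapped between the lines, with log2 fold changes of -0.04, -0.02 and 0.01. By limma, 0 of 6 tested genes were called, against 0.036% of all tested genes, and at an unadjusted p under 0.05 with a fold above 1.5 the single gene *NPR3* was lower, against 2.81% of all. Without both WT replicate 1 libraries *CBP60g* was called (-0.90 on the log2 scale, SE 0.22, limma adjusted p = 0.0345), where 3.82% of all tested genes were called lower. This leaves out the WT mock library through which the *CBP60g* groups overlapped. That library had 3 of 12 clock genes beyond all others, as many as WT mock replicate 3.

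The line difference was also averaged over both treatments, a comparison chosen after the values were seen. *CBP60g* was below the WT mean of the same treatment in 6 of 6 *linc1-1* libraries, with an averaged log2 difference of -0.80 (SE 0.19, limma adjusted p = 0.0565). *NPR3* (-0.76, SE 0.21, adjusted p = 0.0778) and *SAG101* (-0.51, SE 0.17, adjusted p = 0.135) were below it in 6 of 6 as well. None passed the limma threshold, which 2.09% of all tested genes did. At an unadjusted p under 0.05 with a fold above 1.5, 2 of the 6 were lower (*CBP60g* and *NPR3*), against 3.93% of all. Exchanging the line labels within each treatment (400 arrangements, two-sided, smallest possible p 0.005) gave an exact p of 0.015 for *CBP60g* and for *NPR3*, 0.03 for *SAG101*, and 0.035 for *NPR1* (-0.23) and for *SARD1* (-0.23). The exact p was 0.665 for *ICS1*, 0.805 for *PBS3*, 0.765 for *EDS5*, 0.9 for *EDS1* and 0.955 for *PAD4*. These are 10 single tests without adjustment. Of the 6 tested genes 4 were lower at an exact p under 0.05, where 7.36% of all tested genes were. The limma calls changed with the setting. With size-factor scaling *NPR3* (adjusted p = 0.0451) and, at the threshold, *CBP60g* passed, where 300 of 16677 tested genes were called lower. With library weights *CBP60g* (adjusted p = 0.00227), *SAG101* (adjusted p = 0.00308) and *NPR3* (adjusted p = 0.032) did. The share of all tested genes called is not given here for library weights or for single libraries left out. Without WT *Pst hrcC-* replicate 1 alone *SAG101* (adjusted p = 0.0168) and *CBP60g* (adjusted p = 0.0465) passed, and without WT mock replicate 1 alone *CBP60g* did (adjusted p = 0.00802). Without both WT replicate 1 libraries, *CBP60g* (-0.91, adjusted p = 0.00286), *SAG101* (-0.72, adjusted p = 0.00288) and *NPR3* (-0.66, adjusted p = 0.0463) passed, against 6.94% of all tested genes called lower.

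The response to *Pst hrcC-* at 24 hours was asked of each line in turn. In *linc1-1*, *EDS5*, the transporter that carries isochorismate out of the plastid, had 1.12, 1.42 and 1.47 FPKM after *Pst hrcC-*, against 0.319, 0.427 and 0.428 FPKM in mock seedlings. The groups were far apart relative to their spread, and the log2 fold change was 0.74 (SE 0.22, adjusted p = 0.504 from limma with no minimum). Among all tested genes, 7.45% were higher without overlap in this comparison. *SAG101* went the other way, with 2.78, 3.71 and 3.71 FPKM after *Pst hrcC-*, against 5.34, 5.50 and 4.07 FPKM in mock (-0.44 on the log2 scale, SE 0.25, limma adjusted p = 1), lower without overlap as were 4.16% of all tested genes. The other 8 genes overlapped between treatments in *linc1-1*, with log2 fold changes from -0.17 for *NPR1* to 0.12 for *NPR3*. By limma 0 of 6 tested genes were called, against 0.606% of all, and 0 of 6 reached an unadjusted p under 0.05 with a fold above 1.5, against 3.16%.

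In WT, no gene of the 10 separated the treatments. Among all tested genes, 2.9% were higher and 5.14% lower without overlap in this comparison. *EDS5* had 1.57, 0.429 and 1.67 FPKM after *Pst hrcC-*, against 0.934, 0.486 and 0.482 FPKM in mock WT, so that 2 libraries were high and replicate 2 was not (0.40 on the log2 scale, SE 0.22, limma adjusted p = 0.961). *SARD1* and *NPR3* were highest in WT *Pst hrcC-* replicate 3, at 0.82 and 14.0 FPKM, with log2 fold changes of 0.26 (SE 0.15) and 0.35 (SE 0.29). *ICS1*, the enzyme that commits chorismate to SA, had a log2 fold change of 0.08 (SE 0.19) in *linc1-1* and -0.28 (SE 0.19) in WT. For *PBS3*, which conjugates isochorismate to glutamate, it was 0.0016 (SE 0.20) in *linc1-1* and 0.04 (SE 0.20) in WT. *ICS1* thus stayed within 0.114 to 0.679 FPKM in the 6 *Pst hrcC-* libraries. By limma 0 of 6 tested genes were called in WT, against 0.18% of all, and 0 of 6 reached an unadjusted p under 0.05 with a fold above 1.5, against 3.26%. Averaged over both lines, a comparison chosen after the values were seen, the *EDS5* difference was 0.57 (SE 0.15, limma adjusted p = 0.276), with an exact permutation p of 0.02 over 400 arrangements and 5 of 6 *Pst hrcC-* libraries above the mock mean of their line. For the other 9 genes this exact p was 0.265 or more. The averaged response was called for 1.07% of all tested genes, and 3.74% were higher at an exact p under 0.05.

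Whether the lines responded differently was tested as the difference between the responses. The largest values among tested genes were -0.59 (SE 0.35) for *SAG101* and -0.42 (SE 0.39) for *CBP60g*, both at an adjusted p of 1 in limma. The values were -0.23 (SE 0.41) for *NPR3*, -0.08 (SE 0.23) for *NPR1*, -0.01 (SE 0.32) for *EDS1* and -0.03 (SE 0.41) for *PAD4*. Of all tested genes, 0% were called, and 1.99% reached an unadjusted p under 0.05 with a fold above 1.5, which 0 of the 6 did. *EDS5* responded by 0.74 in *linc1-1* and by 0.40 in WT, and this difference of 0.34 was about as large as its error (SE 0.31, limma adjusted p = 1).

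Within the EDS1 family, *EDS1* and *PAD4* varied together over the libraries while *SAG101* did not follow. Pearson's r of log2(FPKM + 1) over 12 libraries was 0.93 between *EDS1* and *PAD4*, and 0.88 over the 10 libraries without WT replicate 1. Between *SAG101* and *EDS1* it was -0.28 (-0.22 over 10), and between *SAG101* and *PAD4* -0.41 (-0.39 over 10). The ratio of *SAG101* to *EDS1* in FPKM was 0.511, 0.641 and 0.687 in *linc1-1* after *Pst hrcC-*, against 0.536, 2.14 and 1.44 in WT after *Pst hrcC-*. It was 0.914, 0.867 and 0.794 in mock *linc1-1*, against 0.655, 1.01 and 1.57 in mock WT. WT replicate 1 thus had a ratio inside or below the *linc1-1* range under both treatments, and the other WT libraries were above it. The ratio of *PAD4* to *EDS1* stayed between 0.359 and 0.588 in all 12 libraries. *SAG101* varied with *CBP60g* instead (r = 0.63 over 12 libraries and 0.80 over 10), and *SARD1* with *NPR3* (0.73 and 0.90). All genes of a library share its scaling and its plants, and the 12 libraries come from 4 groups, so these correlations describe the 12 libraries only.

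**Figure D3:**
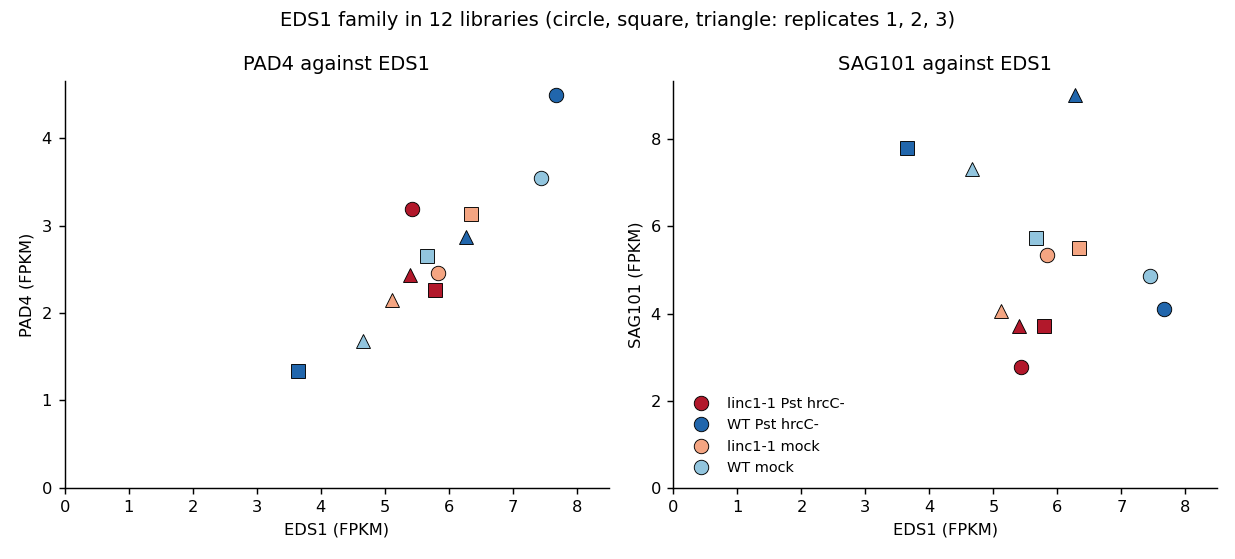
FPKM of *PAD4* (left) and *SAG101* (right) against *EDS1* in the 12 libraries, coloured by group with the replicate number as the symbol. *PAD4* follows *EDS1* (r = 0.93 on the log2 scale), while the 3 *linc1-1* libraries after *Pst hrcC-* lie lowest for *SAG101*, at 2.78 to 3.71 FPKM, at middle levels of *EDS1*.

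Outside the set, the genes whose pattern over the 12 libraries was most like that of *ICS1* were AT2G21190 (r = 0.96), *CSK*, a chloroplast sensor kinase (0.95), and *PUB45*, a U-box protein (0.93). With the WT replicate 1 libraries left out, these fell to 0.87, 0.82 and 0.79. For *EDS1* they were AT1G74055 (0.95), *PHT1;2*, a phosphate transporter (0.94), and AT1G29520 (0.93), and for *NPR1* they were *GLDP2*, a glycine decarboxylase subunit, and *DGK1*, a diacylglycerol kinase (0.89 each), and *PDAT* (0.88). These were picked as the highest of 16677 genes and are a description of likeness in level. None of them is a member of the lists of the pathway.

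A further 7 lists of other genes around this pathway held 52 genes, of which 42 were tested. These lists too were chosen with earlier results of these data known, so the counts below are a description. Between *linc1-1* and WT after *Pst hrcC-*, 26 of the 42 had negative values and 16 positive (61.9% negative, beside 33.9% of all tested genes), and their median log2 fold change was -0.11, beside 0.14 over all genes. Of the 42, 3 were called lower and 0 higher, where 0.258% of all tested genes were called lower. After the scaling of each library described above, 33 values were negative and 9 positive (78.6% negative, beside 48.4% of all), and 3 were called lower, against 0.378% of all (median -0.22, beside 0.01). The 3 called genes are known to act against SA or its synthesis, but a shared function among the lower genes was not tested. *CBP60g*, which switches on *ICS1*, was lower in this comparison too, without a call (-1.01 on the log2 scale). *DMR6*, which hydroxylates SA and so inactivates it, had 0.874, 1.19 and 1.28 FPKM in *linc1-1*, against 5.73, 5.24 and 5.36 FPKM in WT (-1.61 on the log2 scale, SE 0.27, limma adjusted p = 0.0344). *CBP60a*, a relative of CBP60g that represses SA accumulation, had 3.95, 3.89 and 3.93 FPKM in *linc1-1*, against 9.19, 9.16 and 7.74 FPKM in WT (-0.97 on the log2 scale, SE 0.17, limma adjusted p = 0.0412). *NAC019*, a NAC factor that represses *ICS1*, had 0.571, 0.842 and 1.73 FPKM in *linc1-1*, against 7.61, 5.68 and 6.33 FPKM in WT (-1.91 on the log2 scale, SE 0.25, limma adjusted p = 0.0123). In none of the 3 did the lines overlap.

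These calls lie close to the threshold. Of 20 alternatives, *DMR6* was called in 9, *CBP60a* in 8 and *NAC019* in 15. With the replicate number as a block *DMR6* (adjusted p = 0.0672) and *CBP60a* (adjusted p = 0.0766) lost their call, and so did both with no minimum on FPKM (adjusted p = 0.059 and 0.058). All 3 lost it when only the groups compared were fitted (adjusted p = 0.0684, 0.0998 and 0.0685), and *NAC019* with a pseudocount of 0.1 (adjusted p = 0.0803). With a single library left out, *DMR6* lost its call in 8 of 12 cases, namely without any of the 3 *linc1-1* *Pst hrcC-* libraries, without *linc1-1* mock replicates 1 or 2, without WT *Pst hrcC-* replicates 2 or 3, or without WT mock replicate 3 (log2 fold change -1.67 to -1.53 over the 12, adjusted p up to 0.161 from limma). *CBP60a* lost it in 9 of 12, the same ones and WT mock replicate 2 (-1.05 to -0.94, adjusted p up to 0.198), and *NAC019* in 3 of 12, without *linc1-1* *Pst hrcC-* replicates 1 or 2 or WT *Pst hrcC-* replicate 3 (-2.14 to -1.74, adjusted p up to 0.0822). No direction changed. In mock seedlings none of the 3 was called. Averaged over both treatments all 3 were, where 208 of 16677 tested genes were called lower. The averaged values were -1.19 for *DMR6* (limma adjusted p = 0.0137), -0.73 for *CBP60a* (adjusted p = 0.0165) and -1.13 for *NAC019* (adjusted p = 0.0125). The average includes the comparison after *Pst hrcC-* by which the 3 were picked, so these calls are not separate support. *NAC019* was also the single pathway gene that passed the test in a response, where 0.18% of all tested genes were called in WT. It was higher in WT after *Pst hrcC-*, at 7.61, 5.68 and 6.33 FPKM against 0.261, 0.996 and 0.917 FPKM in mock WT (2.15 on the log2 scale, SE 0.25, limma adjusted p = 0.00667). This call held in 18 of 20 alternatives. It was lost with a pseudocount of 0.1 (limma adjusted p = 0.074) and with only the groups compared (0.0748).

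By list, the 14 regulators of *ICS1* or *EDS1* had 13 tested, 10 of them with negative and 3 with positive values between *linc1-1* and WT after *Pst hrcC-* (median -0.36, 2 called lower). The 5 helper receptors of the EDS1 modules were all tested and all negative, 0 called, with -0.57 (SE 0.32, limma adjusted p = 0.405) for *ADR1-L2* and -0.49 (SE 0.24, adjusted p = 0.34) for *ADR1-L1*. Of 15 partners of the NPR proteins 11 were tested, 6 negative and 5 positive, 0 called. The largest was *WRKY70*, a WRKY factor downstream of NPR1, with 2.24, 2.18 and 1.63 FPKM in *linc1-1*, against 16.4, 2.36 and 7.85 FPKM in WT (-1.42 on the log2 scale, SE 0.49, limma adjusted p = 0.208). Without WT *Pst hrcC-* replicate 1 it was -0.86, and without replicate 2 it was -2.05. It was followed by *NIMIN2*, an NPR1-interacting protein (-0.78, SE 0.28, limma adjusted p = 0.219, and -0.48 without *linc1-1* *Pst hrcC-* replicate 2). In SA synthesis 5 of 6 were tested, 4 positive and 1 negative (median 0.21), 0 called. The negative one was *PAL2*, a phenylalanine ammonia lyase (-0.62, SE 0.27, and -0.31 without WT *Pst hrcC-* replicate 1). *EPS1*, which speeds the last step from the glutamate conjugate to SA, had 0.58 (SE 0.26). In SA turnover 4 of 6 were tested, 2 in each direction, with *DMR6* the 1 call, and for N-hydroxypipecolate, the mobile signal of systemic resistance, only *SARD4* of 3 was tested (0.13, SE 0.37, and -0.012 after size-factor scaling). Without both WT replicate 1 libraries, 12 of the 42 pathway genes passed the limma test, 9 lower and 3 higher, where 6.31% of all tested genes were called lower and 11.4% higher. They were the 3 above and 9 more, named here because they passed. Among regulators these were *CAMTA3*, a calmodulin-binding repressor of *EDS1* (-0.66), *NAC055*, a relative of NAC019 (-1.53), and *TCP9* (-0.80) and *WRKY28* (-1.19), which activate *ICS1*. The helper receptors *ADR1-L2* (-0.95) and *ADR1-L1* (-0.68) were lower too, and *EPS1* (0.84), *PAL3* (0.65) and *PR5*, given below, were higher, with adjusted p from 0.0104 to 0.0457 over the 9.

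The output genes of SA were uneven between libraries of one group. *PR1* had 0.134, 0 and 0.108 FPKM in *linc1-1* after *Pst hrcC-*, against 98.2, 0 and 7.59 FPKM in WT, and 0, 0.319 and 0 FPKM in mock *linc1-1*, against 0, 17.3 and 4.43 FPKM in mock WT. All 6 *linc1-1* libraries were at 0.319 FPKM or less, as were 2 of the 6 WT libraries, and the log2 fold change after *Pst hrcC-* of -3.14 had an SE of 1.38 (adjusted p = 0.299 from limma). It was -1.44 without WT *Pst hrcC-* replicate 1 and -4.76 without replicate 2. *PR2* had 0.432, 0.295 and 0.511 FPKM in *linc1-1* after *Pst hrcC-*, against 9.999, 0.279 and 3.37 FPKM in WT (-1.48 on the log2 scale, SE 0.64, limma adjusted p = 0.294), and the value was -0.75 without WT replicate 1 and -2.30 without WT replicate 2. The difference of *PR5* was 0.77 on the log2 scale (SE 0.52, limma adjusted p = 0.477). It was 0.17 without WT *Pst hrcC-* replicate 3, and it passed without both WT replicate 1 libraries (1.38, adjusted p = 0.0457).

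**Figure D4:**
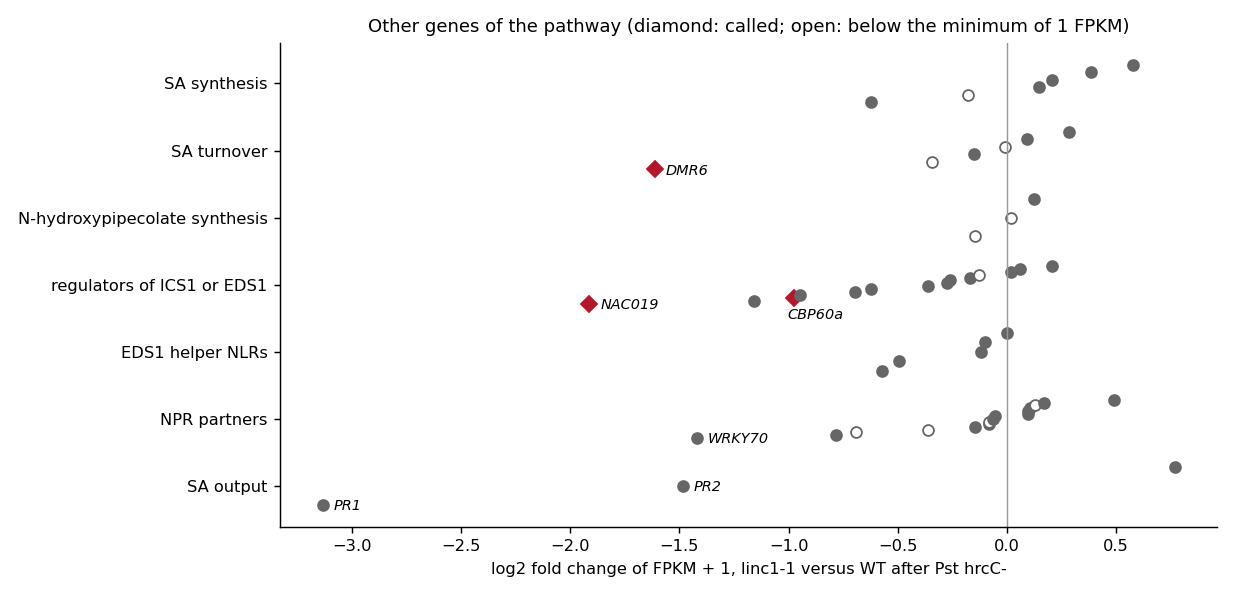
log2 fold change (x axis, of FPKM + 1) of *linc1-1* against WT after *Pst hrcC-* for 52 other genes of the pathway, by list, with diamonds for called genes and open circles for genes below the minimum of 1 FPKM. *NAC019* (-1.91), *DMR6* (-1.61) and *CBP60a* (-0.97) are the 3 called genes, and *PR1* at -3.14 is not called.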

How the data were processed

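The transcriptome series holds 12 libraries in 4 groups of 3, from 14-day-old whole seedlings of *linc1-1* and WT. The authors made stranded mRNA libraries, mapped the reads to TAIR10 with TopHat2 (2.1.1 in the submitters' processing notes) and deposited FPKM values from Cufflinks (2.2.1), in 2 tables, 1 per line, of 27371 genes. The tables hold no counts, so the depth of each library is unknown, no interval for counting error can be given, and no count test was run.

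Values were put on the log2(FPKM + 1) scale. The 16677 genes that averaged 1 FPKM or more were fitted in limma 3.58.1 (R 4.3.3), with the 4 groups in 1 model and a variance trend, in 5 contrasts. A further 2 contrasts were added after the values were seen. They are the line difference averaged over both treatments and the treatment difference averaged over both lines. Fold changes are on this scale and understate those of low genes. Benjamini-Hochberg adjustment was applied within each contrast, and calls needed an adjusted p under 0.05 together with a fold above 1.5. The exact permutation tests were two-sided. The samples are called independent repeats by the study, and p-values measure the spread between them.

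The 10 genes and the lists were chosen with earlier results of these data known. Named beside the 10 were *LINC1*, the 3 tested genes most like each of *ICS1*, *EDS1* and *NPR1*, every called gene of a pathway list or else the 2 with the largest change between the lines after *Pst hrcC-*, and *PR1*, *PR2* and *PR5*. Gene positions and upstream windows came from TAIR10.1, in which 26703 of the identifiers were found. Alternatives were a pseudocount of 0.1 FPKM, no minimum, size-factor scaling, quantile normalization, library weights, the replicate number as a block, the 2 groups compared alone, and leaving out libraries.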

Additional observations from a re-analysis of the deposited data

How the results depend on the processing

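The number of the 6 tested genes called between *linc1-1* and WT after *Pst hrcC-* was 0 in the fit reported, 2 with library weights, 2 without both WT replicate 1 libraries, and from 0 to 1 with single libraries left out. Between mock *linc1-1* and mock WT it was 1 with library weights and 1 without both WT replicate 1 libraries. For the line difference averaged over both treatments it was 2 with size-factor scaling, 3 with library weights, 3 without both WT replicate 1 libraries, and from 0 to 2 with single libraries left out. Calls over all tested genes rose as well: after *Pst hrcC-*, 6.31% were called lower without both WT replicate 1 libraries, against 0.258% in the fit reported. For library weights and single libraries left out this share is not given here. In the responses and their difference, 0 of the tested genes among the 10 were called under each alternative run. Of the log2 fold changes of tested genes under an alternative, 802 kept direction and side of the threshold, 14 came past it, 31 fell behind it and 67 changed sign, most of these for *EDS1* and *PAD4*, whose values lie near 0. 

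With the replicate number as a block, 0 of the 6 tested genes were called in any comparison (*CBP60g* after *Pst hrcC-* had -1.01 with an SE of 0.30 and a limma adjusted p of 0.171), and *DMR6* and *CBP60a* lost their call (adjusted p = 0.0672 and 0.0766). The numbers were not read as pairs, since only 4 of 18 correlations between libraries of the same number were above 0.1. The largest was 0.45, between the WT *Pst hrcC-* and WT mock libraries of replicate 1. Between libraries of different number the largest was 0.35, for WT *Pst hrcC-* replicate 2 and WT mock replicate 3. *LINC1* lost its call when only the groups compared were fitted (adjusted p = 0.0684), as did the 3 called pathway genes. The cause of these changes was not tested. With 3 libraries a group and unknown depth, differences of low genes such as *ICS1*, *PBS3* and *SARD1* were not detectable unless large, and their fold changes move with the pseudocount (*SARD1* after *Pst hrcC-*, -0.38 with 1 FPKM and -1.54 with 0.1 FPKM).

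With library weights, the sign turned to 0.16 for *EDS1*, 0.31 for *PAD4* between *linc1-1* and WT after *Pst hrcC-*, 0.15 for *EDS1* between mock *linc1-1* and mock WT, -0.071 for *PAD4*, -0.0598 for *CBP60g*, 0.0042 for *NPR1* in the WT response, 0.0065 for *EDS1*, 0.091 for *PAD4* in the difference between the responses. With both WT replicate 1 libraries left out, the sign turned to 0.17 for *EDS1*, 0.27 for *PAD4* between *linc1-1* and WT after *Pst hrcC-*, 0.14 for *EDS1* between mock *linc1-1* and mock WT, -0.056 for *PAD4*, -0.088 for *CBP60g*, 0.019 for *NPR1* in the WT response, 0.034 for *EDS1*, 0.079 for *PAD4* in the difference between the responses. With the pseudocount of 0.1, the sign turned to 0.0052 for *PAD4* between *linc1-1* and WT after *Pst hrcC-*, 0.00043 for *EDS1* in the difference between the responses. With size-factor scaling, the sign turned to -0.012 for *SARD4* between *linc1-1* and WT after *Pst hrcC-*, 0.051 for *EDS1*, 0.018 for *NPR1* in the WT response, -0.00697 for *PAD4* in the *linc1-1* response. With quantile normalization, the sign turned to -0.0074 for *SARD4* between *linc1-1* and WT after *Pst hrcC-*, -0.0042 for *PAD4* between mock *linc1-1* and mock WT, 0.022 for *EDS1* in the WT response, -0.042 for *PAD4* in the *linc1-1* response. With 1 library left out at a time, the values between *linc1-1* and WT after *Pst hrcC-* ran from -0.28 to 0.17 for *EDS1*, from -0.35 to 0.27 for *PAD4*, from -0.15 to 0.57 for *SARD4*. With 1 library left out at a time, the values between mock *linc1-1* and mock WT ran from -0.15 to 0.14 for *EDS1*, from -0.20 to 0.19 for *PAD4*. With 1 library left out at a time, the values in the WT response ran from -0.23 to 0.22 for *EDS1*, from -0.24 to 0.38 for *PAD4*, from -0.043 to 0.44 for *SAG101*, from -0.00696 to 0.56 for *CBP60g*, from -0.15 to 0.035 for *NPR1*. With 1 library left out at a time, the values in the *linc1-1* response ran from -0.12 to 0.014 for *EDS1*, from -0.083 to 0.13 for *PAD4*, from -0.30 to 0.037 for *CBP60g*, from -0.12 to 0.26 for *NPR3*. With 1 library left out at a time, the values in the difference between the responses ran from -0.26 to 0.19 for *EDS1*, from -0.36 to 0.26 for *PAD4*, from -0.20 to 0.046 for *NPR1*.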
